A study of Solanum lycopersicum with 6 samples.

Results

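The cutin and wax synthesis families of tomato fruit were taken from the deposited gene table by their descriptions, matching GDSL, 3-ketoacyl-CoA synthase, cutin, glycerol-3-phosphate acyltransferase, eceriferum, wax or fatty acyl-CoA reductase, with CD1 (Solyc11g006250) added. This gave 182 of 40229 genes. The cutin class held 143 of them and the wax class 39. RNA-seq libraries came from fruit collected 25 days after anthesis, 3 of the genotype SlLBD40-KO and 3 of wild type (WT), in Micro-Tom, a dwarf tomato; SlLBD40 belongs to the plant-specific LOB domain family of transcription factors. The labels call the replicates biological but give neither the number of knockout lines nor that of plants or pooled fruits. Libraries are numbered here by their column in the table, which was tied to a genotype only: 1 knockout column bears the title of a sample, and the other 5 columns match no title.

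The cuticle seals the outer face of the fruit epidermis. Cutin is a polyester of hydroxylated fatty acids: P450 enzymes add the hydroxyl groups, a glycerol-3-phosphate acyltransferase joins the acids to glycerol, and CD1, a secreted GDSL protein, links the resulting monomers into polymer. Waxes lie in and on this polymer. They are made from very-long-chain fatty acids, which 3-ketoacyl-CoA synthases elongate and which the ECERIFERUM 1 and 3 proteins of Arabidopsis turn into alkanes, or fatty acyl-CoA reductases into alcohols. Most GDSL esterases have no established part in cutin, and 6 members are 1-acyl-glycerol-3-phosphate acyltransferases, which serve membrane and storage lipids and matched only by their wording.

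Levels are given in TPM, transcripts per 1000000 after correction for length, and the sequencing depth behind them is unknown. Between 17352 and 18693 genes reached 1 TPM per library, the fewest in knockout 3. Title prefix differed between the genotypes, as did sequencing lane where the labels give one, so neither can be told apart from genotype. The gene taken as SlLBD40 (Solyc02g085910, from memory) stood at 0.77, 2.51 and 3.85 TPM in the knockout and at 1.57, 5.35 and 1.90 TPM in wild type. These groups overlapped, so the transcript does not check the labels. Of 9 listed fruit genes 4 were tested and 5 were not, 3 of these being at 0 in all 6 libraries. Among those tested, the fruit-specific TOM2A11 stood at 190.59 to 278 TPM in the knockout and 259 to 285 TPM in wild type. The fruit MADS gene TAGL1 stood at 164 to 175 TPM in the knockout and 172 to 241 TPM in wild type. The fruit-specific Solyc07g049135 varied widely, at 6065, 18015 and 23528 TPM in the knockout and 45222, 9335 and 6592 TPM in wild type. Polygalacturonase PG2a, a ripening enzyme, stood at 107.52, 10.81 and 367.19 TPM in the knockout and at 0.04, 50.4 and 48.7 TPM in wild type. The 47 seed storage and oil body genes summed to 4930, 311 and 479 TPM in knockout 1, 2 and 3 and to 4730, 163 and 205 TPM in wild type 1, 2 and 3. A 2S albumin gene (Solyc08g080490) stood at 1675.08, 36.96 and 0 TPM in the knockout and at 2171.47, 0.18 and 0 TPM in wild type. Of the 47 genes, 19 to 26 were at 0 in each knockout library and 20 to 25 in each wild-type library, 11 of them in all 6 libraries.

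Of the 182 members, 60 reached 1 TPM in at least 3 libraries and were tested, 46 in the cutin class and 14 in the wax class. Of the other 122, 51 were listed at 0 in all 6 libraries, 48 stayed under 1 TPM in every library and 23 reached 1 TPM in 1 or 2 libraries. One tested member, a GDSL gene (Solyc01g099020), passed the filter through the knockout libraries alone. For others, among them CD1, Solyc02g077330 and Solyc12g017460, all 3 wild-type libraries but only 1 knockout library reached 1 TPM. These met the filter through wild type, so a lower knockout level was partly built into their selection. The cutin class summed to 897, 1091 and 548 TPM in knockout 1, 2 and 3 and to 976, 943 and 930 TPM in wild type 1, 2 and 3. The wax class summed to 349, 431 and 178 TPM in the knockout and to 199.8, 426 and 425.5 TPM in wild type. Knockout 3 had the lowest sum of both classes, and wild type 1 lay close to it for wax only.

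CD1 (Solyc11g006250), the cutin synthase, stood at 0.24, 1.15 and 0 TPM in knockout 1, 2 and 3 and at 75.44, 3.65 and 7.05 TPM in wild type 1, 2 and 3. All knockout values lay below all wild-type values, and wild type 1 was far above the other libraries. The log2 fold change on the log2(TPM + 1) scale was −3.36 (SE 0.99, 95% interval −5.68 to −1.03, n = 3 per genotype), which did not pass adjustment over all 18368 genes tested (limma adjusted p = 0.157). Without wild type 1 it was −2.14 (limma adjusted p = 0.169). The seed genes summed to 4930 TPM in knockout 1, where CD1 stood at 0.24 TPM, and to 4730 TPM in wild type 1, where CD1 stood at 75.44 TPM; the part of seed content in the CD1 values was not tested.

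Several genes that act before CD1 had a like order of libraries, and they are grouped here after their values were seen. GPAT6 (Solyc09g014350), which makes the glycerol esters that CD1 uses, stood at 0.03, 0.47 and 0.03 TPM in the knockout and at 53.22, 0.93 and 12.85 TPM in wild type. It reached 1 TPM in 2 libraries only and was not tested. CD3 (Solyc08g081220), the CYP86A69 hydroxylase of the fatty acid end, stood at 0.28, 1.38 and 0 TPM in the knockout and at 50.84, 1.75 and 8.97 TPM in wild type (log2 fold change −2.96, SE 0.99, limma adjusted p = 0.194). The groups did not overlap for either gene, though the lowest wild-type value was close to the highest knockout value. CYP77A2 (Solyc11g007540), a hydroxylase acting within the chain, stood at 0.04, 1.12 and 0 TPM in the knockout and at 12.83, 0.68 and 1.36 TPM in wild type. Its groups overlapped (limma adjusted p = 0.369). SHN2 (Solyc12g009490), of the SHINE family of cuticle regulators, stood at 0, 0.45 and 0 TPM in the knockout and at 9.24, 0.56 and 1.35 TPM in wild type. Too few libraries reached 1 TPM for a test of SHN2. In all 5 genes, CD1 included, wild type 1 was the highest library and knockout 2 the highest knockout library.

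CYP77A1 (Solyc05g055400) stood at 22.05, 60.42 and 0.30 TPM in the knockout and at 111.1, 37.2 and 24.99 TPM in wild type, again with wild type 1 highest, but at a much higher level in knockout 1 and 2. DCR (Solyc03g025320), an acyltransferase needed to build hydroxy fatty acids into cutin, stood at 58.38, 131.22 and 7.08 TPM in the knockout and at 90.66, 72.76 and 81.73 TPM in wild type. Both had their lowest value in knockout 3, and both groups overlapped (limma adjusted p = 0.504 and 0.612). CD2 (Solyc01g091630), the homeodomain regulator whose mutants lack cutin, stood at 39.64, 28.51 and 13.34 TPM in the knockout and at 19.77, 20.4 and 22.91 TPM in wild type, with the knockout on both sides of wild type (limma adjusted p = 0.821).

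The most abundant GDSL gene, Solyc07g049440, stood at 112.37, 257.96 and 25.01 TPM in the knockout and at 66.34, 176.01 and 79.72 TPM in wild type. Its log2 fold change was −0.11 (SE 0.81, 95% interval −2.02 to 1.80, limma adjusted p = 0.966), which leaves room for a change of up to that size either way. The CPRD49-like Solyc10g076740 stood at 77.13, 68.65 and 42.64 TPM in the knockout and at 56.43, 72.74 and 29.97 TPM in wild type. Solyc06g071510 stood at 83.86, 47.63 and 35.31 TPM in the knockout and at 24.45, 35.96 and 32.05 TPM in wild type (log2 fold change 0.76, SE 0.35, limma adjusted p = 0.327). The groups overlapped for all 3 genes, as they did for Solyc01g098650 and Solyc08g006487, whose means were 57.2 ± 26.4 and 37.2 ± 13.0 TPM in the knockout and 41.4 ± 16.5 and 35.5 ± 9.41 TPM in wild type (SD, n = 3).

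The GDSL genes with the lowest p were mostly lower in the knockout. So were most of all genes tested with an unadjusted p under 0.05, 2070 lower and 1146 higher. Solyc02g077330 stood at 0.36, 1.57 and 0 TPM in the knockout and at 14.19, 6.18 and 5.47 TPM in wild type (log2 fold change −2.55, SE 0.49, limma adjusted p = 0.0904). Solyc12g017460 stood at 0.79, 3.72 and 0.93 TPM in the knockout and at 20.88, 6.72 and 68.23 TPM in wild type (log2 fold change −3.16, SE 0.80, limma adjusted p = 0.127). Solyc02g071700 stood at 1.90, 4.03 and 0.54 TPM in the knockout and at 25.31, 7.33 and 10.49 TPM in wild type (log2 fold change −2.27, SE 0.58, limma adjusted p = 0.130). In each of these the genotypes did not overlap, as was so for 16.1% of all genes tested with the knockout lower. Solyc02g077330 and Solyc12g017460 met the filter through wild type. In the other direction, Solyc01g099020 stood at 3.03, 1.93 and 1.20 TPM in the knockout and at 0.14, 0 and 0.32 TPM in wild type (log2 fold change 1.37, SE 0.33, limma adjusted p = 0.118). It is the member that passed the filter through the knockout alone, so its difference was built into its selection. Solyc08g082450 stood at 6.07, 6.89 and 3.67 TPM in the knockout and at 13.88, 8.32 and 14.47 TPM in wild type (log2 fold change −1.01, limma adjusted p = 0.201). None of the 5 passed. Solyc08g082450 is named after its values were seen, and the others because their p was among the 6 lowest of the class.

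The glycerol-3-phosphate acyltransferases, which act in glycerolipid as well as cutin synthesis, differed among themselves. Solyc08g082340 was the steadiest, at 49.39, 43.79 and 49.96 TPM in the knockout and at 56.45, 51.03 and 46.92 TPM in wild type (log2 fold change −0.11, SE 0.21, 95% interval −0.59 to 0.38, limma adjusted p = 0.845). Solyc08g076470 stood at 42.63, 22.10 and 19.12 TPM in the knockout and at 11.05, 10.69 and 15.47 TPM in wild type, without overlap (log2 fold change 1.04, SE 0.36, limma adjusted p = 0.201). Solyc01g094700 stood at 4.25, 17.85 and 0.16 TPM in the knockout and at 34.55, 12.17 and 30.72 TPM in wild type (log2 fold change −2.34, SE 0.96, limma adjusted p = 0.271). Solyc07g056320 stood at 9.24, 18.37 and 0.18 TPM in the knockout and at 7.0, 19.68 and 52.92 TPM in wild type. These last 2, named after their values were seen, shared a near absence in knockout 3 and had overlapping groups. The 6 membrane-type 1-acyl-glycerol-3-phosphate acyltransferases were steadier as a family, summing to 79.6 to 95.7 TPM in the knockout and 80.6 to 100.4 TPM in wild type.

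**Figure D1:**
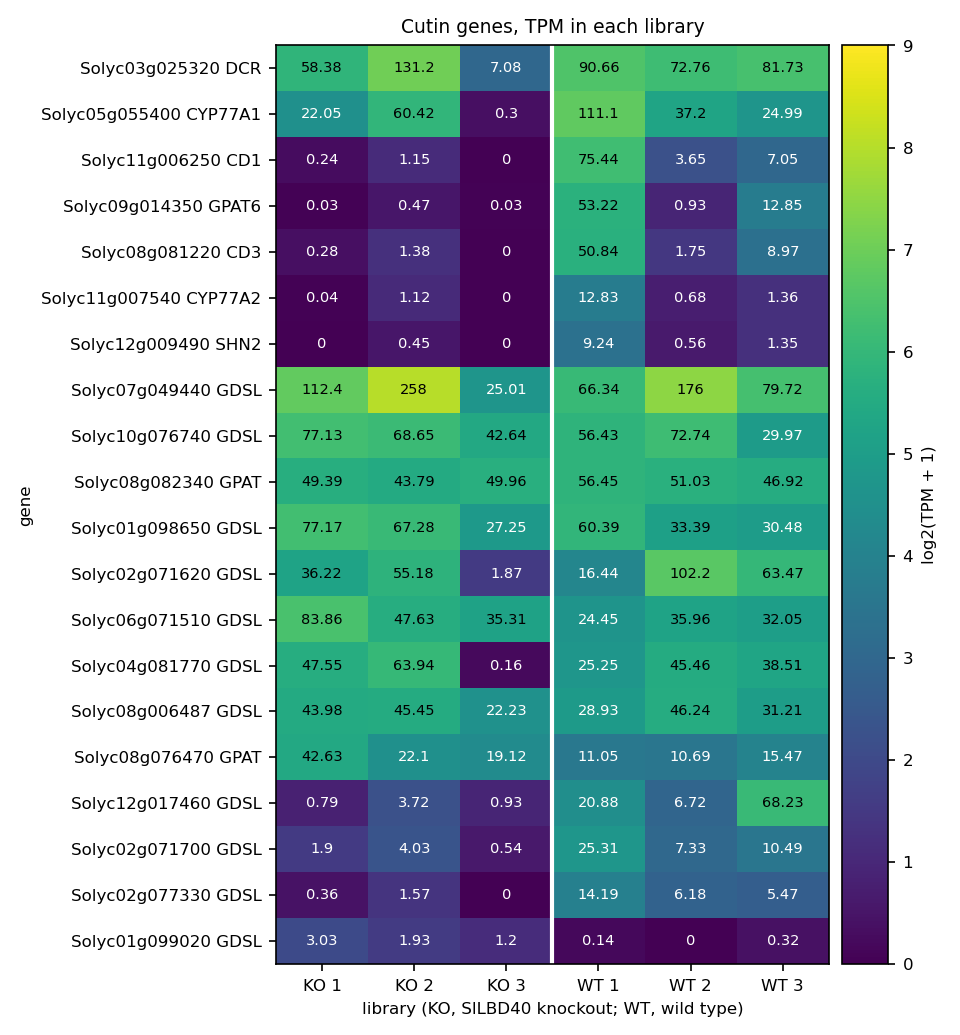
TPM of cutin genes (rows) in 3 knockout libraries (KO, left) and 3 wild-type libraries (WT, right), with colour on the log2(TPM + 1) scale; the upper 7 rows are genes with a published name, of which CD1 and GPAT6 are members, and the rest are members only (GPAT, glycerol-3-phosphate acyltransferase). CD1, GPAT6 and CD3 stand at 1.38 TPM or less in every knockout library and peak in wild type 1.

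In the wax class, the 3-ketoacyl-CoA synthases summed to 170.4, 245 and 57.2 TPM in the knockout and to 171, 306 and 311 TPM in wild type. Solyc08g067410 stood at 13.37, 14.97 and 1.89 TPM in the knockout and at 63.12, 144.08 and 144.75 TPM in wild type. The groups were far apart, and the highest knockout library was below the lowest wild-type library by a wide margin. The log2 fold change was −3.67 (SE 0.69, 95% interval −5.30 to −2.03), the largest in size among the tested members, with limma adjusted p = 0.0904. It stayed between −4.42 and −2.87 over all alternatives, and the adjusted p between 0.0802 and 0.362. It is known only as a member of the elongase family.

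The other abundant elongases showed no such separation. Solyc08g067260 stood at 64.32, 83.97 and 20.69 TPM in the knockout and at 39.6, 47.77 and 51.73 TPM in wild type (log2 fold change 0.07, SE 0.50, limma adjusted p = 0.966). Solyc04g080450 stood at 52.8, 61.14 and 24.06 TPM in the knockout and at 33.46, 35.41 and 37.09 TPM in wild type (limma adjusted p = 0.763). In both, knockout 1 and 2 lay above all wild-type libraries and knockout 3 below them. Solyc09g083050 stood at 15.64, 55.37 and 0 TPM in the knockout and at 0.97, 45.18 and 18.29 TPM in wild type, so its lowest values were in knockout 3 and wild type 1. Solyc10g009240 shared that order, at 1.97, 4.38 and 0.09 TPM in the knockout and 0.04, 5.36 and 23.78 TPM in wild type. Solyc06g065560 stood at 11.8, 9.29 and 8.41 TPM in the knockout and at 19.46, 11.45 and 20.53 TPM in wild type, overlapping through knockout 1 (log2 fold change −0.72, limma adjusted p = 0.301). The 2 weaker elongases tested, Solyc11g072990 and Solyc05g013220, were lowest in knockout 3, at 0.05 and 1.79 TPM, and between 4.73 and 10.37 TPM in the other 5 libraries.

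CER6 (Solyc02g085870), the elongase known from a tomato mutant with a leaky fruit cuticle, is described in the table as a beta-ketoacyl-coenzyme A synthase and is therefore no member. It stood at 150.39, 200.44 and 9.56 TPM in the knockout and at 38.28, 98.07 and 94.68 TPM in wild type. Its log2 fold change of −0.07 (SE 1.08) became 1.28 without knockout 3 (limma adjusted p = 0.983 and 0.210), and 0.04 with median-ratio scaling of the libraries.

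Among the alkane genes, CER3-1 (Solyc03g117800) stood at 116.24, 134.73 and 0.19 TPM in the knockout and at 5.06, 67.44 and 47.6 TPM in wild type. Knockout 1 and 2 were the highest libraries and knockout 3 the lowest. The log2 fold change of −0.03 (SE 1.87, limma adjusted p = 0.996) became 2.21 without knockout 3 (limma adjusted p = 0.291). The ECERIFERUM 1 gene Solyc01g088400 was highest in knockout 3 and lowest in knockout 1, at 0.76, 1.95 and 105.34 TPM in the knockout and at 1.77, 12.69 and 18.73 TPM in wild type. A second gene of that type, CER1-1 (Solyc03g065250), described as a fatty acid hydroxylase and so no member, stood at 109.49, 54.67 and 143.63 TPM in the knockout and at 9.26, 89.29 and 48.44 TPM in wild type. ECERIFERUM 7 (Solyc05g047420) is in Arabidopsis an RNA exosome subunit that affects the level of CER3 transcripts. The tomato gene stood at 19.14, 19.6 and 8.08 TPM in the knockout and at 15.16, 16.2 and 25.07 TPM in wild type. The groups overlapped in all 4.

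Of the fatty acyl-CoA reductases, Solyc11g067180 was higher in every knockout library, at 31.44, 8.40 and 5.45 TPM, against 0.51, 1.5 and 1.95 TPM in wild type. The log2 fold change was 2.49 (SE 0.62, 95% interval 1.02 to 3.96, limma adjusted p = 0.124), and it was 1.80 without knockout 1 (limma adjusted p = 0.329). Its neighbour by identifier, Solyc11g067190, had 0.31, 0.15 and 0 TPM in the knockout and 0.64, 0.60 and 10.19 TPM in wild type, too few libraries at 1 TPM for a test. The family held 11 genes, of which 6 were listed at 0 throughout.

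**Figure D2:**
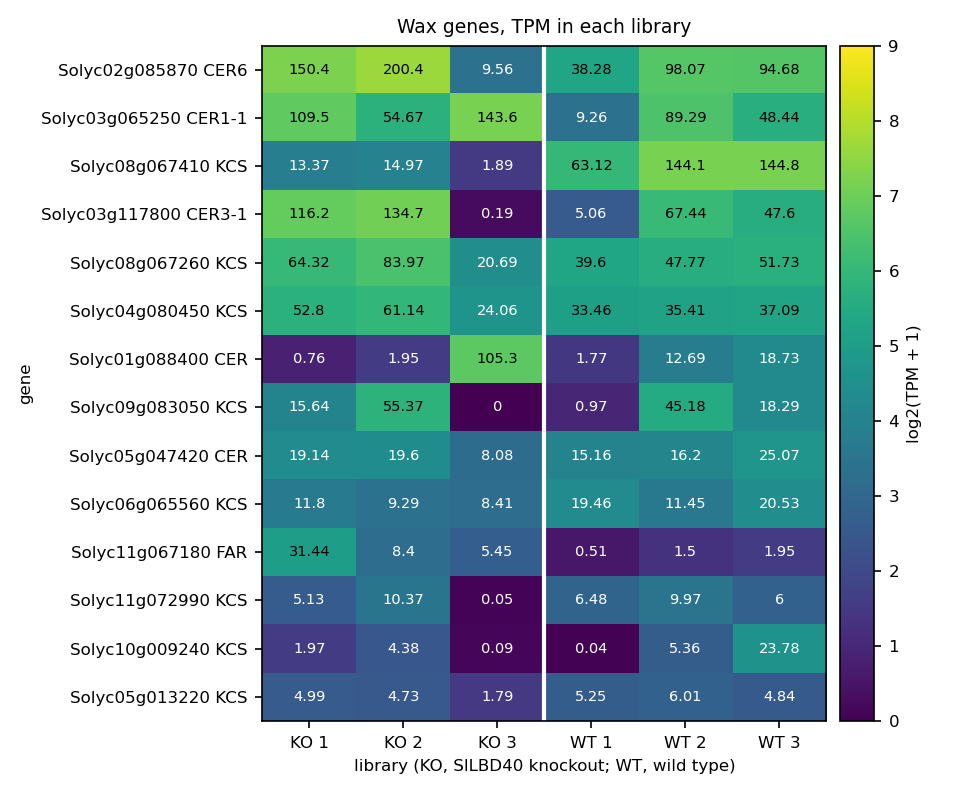
TPM of wax genes (rows) in 3 knockout libraries (KO, left) and 3 wild-type libraries (WT, right), with colour on the log2(TPM + 1) scale; CER6 and CER1-1 are added to the members of the class (KCS, 3-ketoacyl-CoA synthase; CER, ECERIFERUM; FAR, fatty acyl-CoA reductase). Solyc08g067410 is lower in each knockout library, Solyc11g067180 is higher, and CER3-1 reaches 134.73 TPM in knockout 2 but 0.19 TPM in knockout 3.

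No member passed limma at an adjusted p under 0.05. Of all genes tested 0.0926% passed, 0.0436% higher and 0.049% lower in the knockout, against 0 of 46 cutin and 0 of 14 wax members. With an unadjusted p below 0.05 there were 2 higher cutin members (4.35%) and 6 lower ones (13%), together 17.4%. Solyc01g099020, whose difference was built into its selection, is among the higher ones here and among the higher ones without overlap below. CD1, Solyc02g077330 and Solyc12g017460, which met the filter through wild type, are among the lower ones in both counts. Of the wax members 1 was higher (7.14%) and 1 lower (7.14%), together 14.3%. Of all genes tested 6.24% were higher and 11.3% lower, together 17.5%, so with both directions summed neither class exceeded the background. The shares of lower cutin members (13%) and of higher wax members (7.14%, 1 gene) were close to the background for that direction. Knockout and wild-type values did not overlap for 3 higher (6.52%) and 7 lower (15.2%) cutin members, together 21.7%. They did not overlap for 1 higher (7.14%) and 1 lower (7.14%) wax member, together 14.3%. Of all genes tested 8.26% were apart with the knockout higher and 16.1% with it lower, together 24.4%. The knockout mean of log2(TPM + 1) was the lower one for 32 of 46 cutin members (69.6%) and 11 of 14 wax members (78.6%), against 56.5% of all genes tested. Some of these had a higher mean TPM in the knockout, such as CER3-1 (83.7 TPM, and 40.0 TPM in wild type).

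The median log2 fold change was −0.32 over the cutin members tested and −0.31 over the wax members tested, against −0.09 over all genes tested. Without knockout 3 the cutin median was −0.13, with 26 of 46 members lower, and the wax median was 0.19, with 5 of 14 lower; that of all genes was 0.03. The wax median was −0.07 without wild type 2 and −0.04 without wild type 3, each with 7 of 14 lower. Those of all genes were then −0.12 and −0.0018. By family, the medians were −0.40 for 35 GDSL genes, −0.93 for 4 glycerol-3-phosphate acyltransferases, −0.59 for 8 3-ketoacyl-CoA synthases, −0.23 for 4 ECERIFERUM genes and 1.09 for 2 fatty acyl-CoA reductases. Without knockout 3 these were −0.09, −0.35, −0.05, 0.19 and 1.80, so the sign of the ECERIFERUM median turned, as it did without wild type 3 (0.14). The 6 1-acyl-glycerol-3-phosphate acyltransferases had a median of −0.22.

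**Figure D3:**
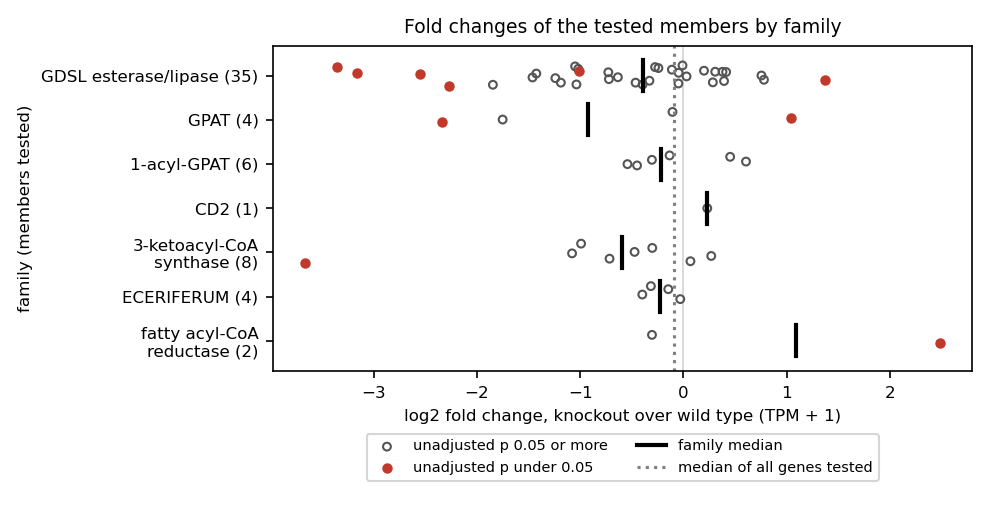
Log2 fold change of knockout over wild type for each of the 60 tested members by family, with the family median as a bar and the median of all genes tested (−0.09) as a dotted line; GPAT stands for glycerol-3-phosphate acyltransferase, and filled points have an unadjusted p under 0.05. GDSL genes lie on both sides of 0, all 4 ECERIFERUM genes below it, and Solyc08g067410 at −3.67 and Solyc11g067180 at 2.49 are the extremes.

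Knockout 3 was the lowest of the 6 libraries for 28 of 46 cutin members (60.9%) and 11 of 14 wax members (78.6%), against 39.9% of all genes tested. With median-ratio scaling of the libraries the shares were 47.8% and 71.4%, against 20.9% of all genes. The typical SD of a wax member among the knockout libraries was 1.23 on the log2(TPM + 1) scale, the median over 14 members, and 0.47 among the wild-type libraries. Over the cutin members these medians were 0.54 and 0.50, and over all genes tested 0.40 and 0.37. Between knockout 1 and 2 alone the medians were 0.25 for wax members, 0.33 for cutin members and 0.21 for all genes tested. No pair of wild-type libraries was taken for comparison. GDSL genes also low in knockout 3 were Solyc04g081770, at 47.55, 63.94 and 0.16 TPM in the knockout and 25.25, 45.46 and 38.51 TPM in wild type, and Solyc02g071620, at 36.22, 55.18 and 1.87 TPM in the knockout and 16.44, 102.25 and 63.47 TPM in wild type. Knockout 3 also had the highest PG2a level and the fewest genes at 1 TPM, and the part of either in these values was not tested. In bulk fruit RNA, fewer epidermal cells and less RNA per cell cannot be told apart.

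**Figure D4:**
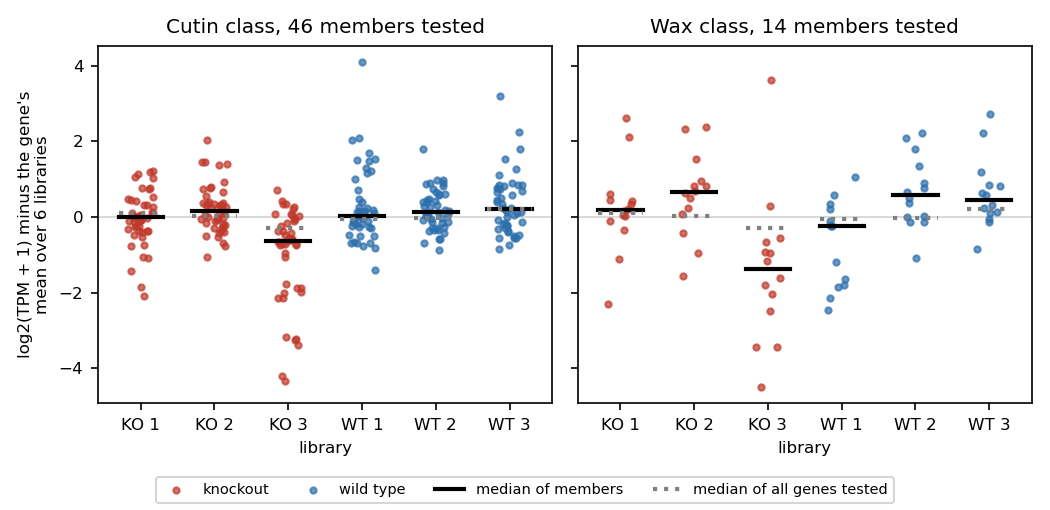
Each point is a tested member's log2(TPM + 1) in a library minus its mean over the 6 libraries, for 46 cutin members (left panel) and 14 wax members (right panel); black bars are medians of members and dotted bars medians of all genes tested. In knockout 3 the median is −0.63 for cutin and −1.39 for wax members, against −0.30 for all genes.

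Members lay in runs along the chromosomes, which the selection did not use. Taking genes of a family whose identifiers are at most 100 apart, 54 members fell into 12 runs of 3 or more, and 44 of these were GDSL genes. Reads from such copies may be split between them, so the value of a single copy is uncertain. A run of 8 GDSL genes on chromosome 2 (Solyc02g071610 to Solyc02g071720) summed to 53.4, 78.3 and 5.11 TPM in the knockout and to 74.8, 128 and 93.6 TPM in wild type. A run of 5 on chromosome 4 (Solyc04g081755 to Solyc04g081800) summed to 81.5, 103 and 2.55 TPM in the knockout and to 32.2, 73.4 and 53.5 TPM in wild type. Both runs had their lowest sum in knockout 3. A run of 8 on chromosome 1 (Solyc01g099010 to Solyc01g099080) did the reverse, summing to 7.27, 3.23 and 100.99 TPM in the knockout and to 1.93, 1.35 and 1.77 TPM in wild type. Nearly all of that knockout 3 value came from Solyc01g099040, which stood at 96.38 TPM there and at 0.50 TPM or less in the other 5 libraries.

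Of the members not tested, 6 reached 10 TPM in some library, named here after their values were seen. Besides GPAT6, Solyc01g099040 and Solyc11g067190, these were Solyc02g090210 at 14.2 TPM and Solyc03g115960 at 11.63 TPM, both in wild type 3 and under 0.50 TPM elsewhere, and Solyc09g063060 at 11.45 TPM in wild type 1. GPAT6 reached 10 TPM in wild type 1 and 3, and each of the other 5 in a single library.

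The other genes of the pathway were read from lists of descriptions or identifiers, and limma called 0 of the 69 tested that are not members (10 had an unadjusted p below 0.05, 3 of them higher and 7 lower, together 14.5%, against 17.5% of all genes tested). Of the named cuticle genes 12 of 15 were tested. On the log2(TPM + 1) scale 2 had a higher and 10 a lower mean in the knockout, where 56.5% of all genes tested had a lower mean. Of these 10, CER6, CER3-1 and TTS1 had a higher mean TPM in the knockout. The list held the members CD1, GPAT6 and CER3-1, but not CD2, which missed its keyword (log2 fold change 0.23). The median log2 fold change of the 12 was −0.69, against −0.09 over all genes tested. Without knockout 3 these medians were 0.02 and 0.03. The MIXTA-like epidermal MYB gene (Solyc02g088190) stood at 4.67 ± 1.42 TPM in the knockout and 4.39 ± 2.28 TPM in wild type (SD, n = 3), and SHN1 (Solyc03g116610) was listed at 0 in all libraries. The surface triterpenoid synthases TTS1 (Solyc12g006530) and TTS2 (Solyc12g006520) averaged 16.7 ± 13.8 and 5.79 ± 4.88 TPM in the knockout and 15.9 ± 8.45 and 9.47 ± 7.99 TPM in wild type. The 3 triterpenoid cyclases tested by description had a median of −0.78, or 0.07 without knockout 3, with cycloartenol synthase (Solyc04g070980), of sterol synthesis, at 15.0 ± 1.91 TPM in the knockout and 29.6 ± 15.9 TPM in wild type.

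Among 11 long-chain acyl-CoA synthetases, which activate fatty acids, 7 had a higher and 4 a lower mean log2(TPM + 1) in the knockout (median log2 fold change 0.10). Without knockout 1 these were 4 higher and 7 lower (median −0.14), and the median was 0.38 without knockout 3. Synthetase 4 (Solyc01g109180) stood at 3.53, 7.80 and 0.46 TPM in the knockout and at 33.45, 7.61 and 23.02 TPM in wild type, with overlap through wild type 2 (limma adjusted p = 0.190). Solyc01g079240, described as synthetase 1 but listed here as the cuticle gene LACS2, averaged 6.33 ± 2.56 TPM in the knockout and 12.4 ± 10.5 TPM in wild type. Solyc08g082280, described as synthetase 2, averaged 28.2 ± 12.9 TPM in the knockout and 54.4 ± 26.9 TPM in wild type. Of the ABCG transporters, some of which export cuticle lipids, 11 were tested (median −0.15, but 0.49 without knockout 3 and 0.0049 without wild type 3). Member 25 (Solyc11g018680) stood at 0.79, 1.66 and 0 TPM in the knockout and at 1.79, 3.19 and 2.94 TPM in wild type, and Solyc04g010200 at 1.64, 1.51 and 2.87 TPM in the knockout and 0.26, 0.76 and 0.86 TPM in wild type (limma adjusted p = 0.247 and 0.230). Groups did not overlap for member 25, and Solyc04g010200 passed the filter through the knockout libraries alone, so its difference was built into its selection.

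A 3-hydroxyacyl-CoA dehydratase of the elongase complex, Solyc11g073130, stood at 5.73, 6.06 and 4.76 TPM in the knockout and at 2.15, 2.55 and 3.44 TPM in wild type, without overlap (limma adjusted p = 0.210). The second dehydratase, Solyc04g014370, averaged 31.9 ± 5.37 TPM in the knockout and 46.7 ± 13.0 TPM in wild type; the list's median was 0.29 over 3 genes, the third being a peroxisomal dienoyl reductase that matched only by its wording. Plastid fatty acid synthesis genes, which supply the carbon, had a median of −0.19 over 30 tested, 9 higher and 21 lower. A biotin carboxyl carrier protein gene (Solyc06g069530), of the acetyl-CoA carboxylase that commits carbon to fatty acids, stood at 13.74, 12.72 and 15.92 TPM in the knockout and at 46.15, 23.34 and 45.04 TPM in wild type (log2 fold change −1.32, SE 0.32, limma adjusted p = 0.118). A 3-oxoacyl-acyl carrier protein synthase gene (Solyc08g082620) stood at 0.29, 0.46 and 0.12 TPM in the knockout and at 22.39, 2.98 and 3.41 TPM in wild type (limma adjusted p = 0.137). It passed the filter through the wild-type libraries alone, so a difference was built into its selection. The groups did not overlap for the carrier protein gene.

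The epidermal HD-Zip genes GLABRA 2 (Solyc03g120620) and MERISTEM L1 (Solyc10g005330) averaged 5.49 ± 2.45 and 3.50 ± 2.66 TPM in the knockout and 10.2 ± 2.18 and 5.51 ± 3.54 TPM in wild type; both were tested and neither passed (limma adjusted p = 0.301 and 0.720). The 1 hydroxylase found by description, CYP86A8-like Solyc04g082380, averaged 4.85 ± 2.30 TPM in the knockout and 8.94 ± 3.84 TPM in wild type. The 1 tested gene of the suberin list, tyramine feruloyltransferase Solyc08g006730, stood at 0.52, 2.09 and 0.22 TPM in the knockout and at 0.88, 11.12 and 174.99 TPM in wild type, its high value being wild type 3 alone.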

How the data were processed

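The deposited file is 1 table of 40229 genes without a stated unit. Its columns sum to between 987932 and 994646, so the values were read as TPM made by the authors. TopHat2, HISAT2, StringTie and Cufflinks appear in the submitters' processing notes, with no roles. Genome build and annotation release were not given in the sources used here. Depth is unknown, no counting interval could be had, and an exact 0 may be a failed estimate.

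Testing used limma 3.58.1 (R 4.3.3, trend) on log2(TPM + 1), for 18368 genes reaching 1 TPM in 3 or more libraries, with Benjamini-Hochberg adjustment over all of them; the code was tested on simulated data. This scale understates the change of low genes. For a single gene, 3 libraries against 3 allow no two-sided exact permutation p under 0.1.

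The members and lists were chosen with earlier results of these data known. Named were, per class, the 8 members with the highest mean and the 6 with the lowest p, the cuticle genes written as identifiers, and the 2 lowest p of each list of descriptions; others are marked in the text. Names such as CD3, GPAT6, DCR, CER6 and CER1-1 come from memory, checked only against the gene's description. CD2 missed its keyword but is a member, E8 missed its keyword and was dropped, and SHN3 was not analysed here. Lipid-transfer proteins were taken out of the seed list once descriptions were read. Alternatives were median-ratio scaling, no filter, 5 TPM as the filter, 0.1 as the pseudocount, the robust option of limma, each library left out, both seed-rich libraries left out, and narrower classes. Plots used matplotlib 3.10.9 (Python 3.11.15).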

Additional observations from a re-analysis of the deposited data

How the results depend on the processing

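No paired analysis was possible because 5 of the 6 columns match no sample title (1 knockout column does), so no column pair shares a number given by the labels. By limma 0 cutin members, 0 wax members and 0 other pathway genes were called under each alternative run for them (narrower classes were run for the members only); at an unadjusted p under 0.05 there were 8 cutin, 2 wax and 10 other pathway genes. Over all genes limma called 17. That count was 27 with median-ratio scaling, 0 with no filter (3699 at an unadjusted p under 0.05), 0 without both seed-rich libraries (wild type 1 and knockout 1; 1626 at an unadjusted p under 0.05), and 0 to 23 with single libraries left out (0 without knockout 1 or wild type 3, 9 without knockout 2, 23 without knockout 3, 11 without wild type 1, 3 without wild type 2). Below an unadjusted p of 0.05, 1146 genes were higher and 2070 lower unscaled, and 1700 higher and 1738 lower with median-ratio scaling. Median-ratio scaling shifted the median over all genes by 0.10 on the log2 scale, giving 0.02 in place of −0.09. Relative to it, the cutin median was −0.23 unscaled and −0.24 scaled, and the wax median −0.22 and −0.31. With single libraries left out the cutin median ranged from −0.49 to −0.13 and the wax median from −0.80 to 0.19, positive only without knockout 3. Against all genes, the wax median was slightly higher without wild type 2 (−0.07 against −0.12) and only slightly lower without wild type 3 (−0.04 against −0.0018). Without both seed-rich libraries the cutin and wax medians were −0.52 and −0.81, with a pseudocount of 0.1 −0.48 and −0.61. With no filter the cutin median was −0.16. The cutin median without GDSL genes other than CD1 was −0.22; no member matched by the word wax alone. Of 55 named genes fitted, 20 took the other sign in at least 1 alternative, and 1 value of 648 passed, a caleosin gene of the seed list. The unknown depth limits what can be said of genes near 1 TPM.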
